A study of Homo sapiens with 26 samples.

Results

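SRGN, which encodes serglycin, is 1 of 33562 genes in an RNA sequencing table of 9 lines (26 libraries) made from MDA-MB-231, a human breast cancer line, here marked Luc. SRGN was chosen by its measured RPKM values across these lines, so its own values are described with no test. The study placed the mitotic kinase Aurora A (AURKA) in the cytoplasm, the nucleus or both and related mRNA profiles to metastatic potential. The 3 control lines, Empty, NES-Empty and NLS-Empty, carried the pLUTZ mRFP vector without AURKA cDNA and the guide sgCon, at passages 19 to 20. The 6 clones WT-AURKA c1 and c2, NES-AURKA c1 and c2, and NLS-AURKA c2 and c3 carried AURKA cDNA in the same vector and were at passages 32 to 35, each a single clone by its label. The labels give MUT2 and sgAURKA2 for WT-AURKA and NES-AURKA, and MUT1 and sgAURKA1 for NLS-AURKA. NES stands for the cytoplasmic form and NLS for the nuclear form, and WT has no localization signal. All cells, controls included, were kept in doxycycline, which induces the cDNA through rtTA, in medium with serum and in normoxia. AURKA cDNA, guide, passage and clonal derivation therefore change together between the arms and cannot be told apart, and likewise guide and NLS signal between the constructs. Every line has 3 libraries, except WT-AURKA c2 with 2. Whether those libraries are separate cultures is not in the labels, and SDs over them may be technical.

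Serglycin is a small proteoglycan whose core protein carries a stretch of serine-glycine repeats, to which long sulfated sugar chains (glycosaminoglycans) are attached. Cells of the blood lineages store it in secretory granules, where the negative charge of the chains packs proteases, chemokines and cytotoxic proteins. Endothelial cells and several carcinoma lines secrete it instead, and CD44 is one of its receptors. The sugar chains are built in the Golgi on a short linker and are then extended and sulfated as chondroitin sulfate or as heparan sulfate.

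The libraries lettered A to H, 1 per line except WT-AURKA c2, stood apart from those lettered I to Z. MALAT1, a nuclear non-coding RNA, was at 175 to 561 RPKM (reads scaled to transcript length and library size) in the first set and at 6.10 to 33.5 RPKM in the second. Depth was estimated at 12400000 to 20700000 reads per library, from the commonest low value times transcript length, taken as 1 read. At these depths the lowest SRGN value, 0.891 RPKM in library G, stood for about 20 reads and the highest, 239 RPKM in library W, for about 4743 reads. The arms were compared with limma on 1 mean of log2(RPKM + 1) per line, and a gene was called at an adjusted p under 0.05. Of 12589 genes tested, 19.2% passed in the comparison of the arms, 8.85% higher and 10.4% lower in AURKA lines, with a median log2 difference of -0.017. Leaving out Empty, NES-Empty or NLS-Empty cut the 2423 calls to 1028, 915 or 902. Of the genes named below with a call between the arms, CHPF, CHSY1, ELK3, ETS1, FOSL1, HKDC1, MMP14, ROBO4 and TGFBR3 passed under all 15 alternatives. Genes named after their values were seen, such as CSGALNACT1 and XYLT2, were not part of this check.

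SRGN was low in the control lines. In Empty it was at 1.29 RPKM in library E, 14.9 RPKM in library I and 12.9 RPKM in library J. In NES-Empty it was at 2.56 RPKM in library C, 11.3 RPKM in library K and 17.0 RPKM in library L. In NLS-Empty it was at 0.891 RPKM in library G, 3.96 RPKM in library M and 4.42 RPKM in library N. In each control line the library of the A to H set was the lowest of the 3, and NLS-Empty lay below the other two control lines within each letter set. The 9 control libraries had a median of 4.42 RPKM, and by RPKM SRGN ranked between place 2500 and place 11154 among the genes of a library.

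SRGN was abundant in the clones carrying AURKA cDNA. WT-AURKA c1 held 77.0, 106 and 144 RPKM in libraries D, O and P, and WT-AURKA c2 held 120.0 and 107 RPKM in libraries Q and R. NES-AURKA c1 held 22.1, 35.1 and 41.7 RPKM in libraries F, S and T, and NES-AURKA c2 held 105, 82.3 and 122 RPKM in libraries A, U and V. NLS-AURKA c2 held 119.8, 239 and 175 RPKM in libraries H, W and X, and NLS-AURKA c3 held 122, 192 and 198 RPKM in libraries B, Y and Z. The lowest of these 17 libraries, F, was still above the highest control library, L, so the arms did not overlap. The 17 libraries had a median of 119.8 RPKM and SRGN ranked between place 86 and place 1283. In bulk RNA a larger share of SRGN-positive cells and more SRGN RNA per cell cannot be told apart.

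**Figure D1:**
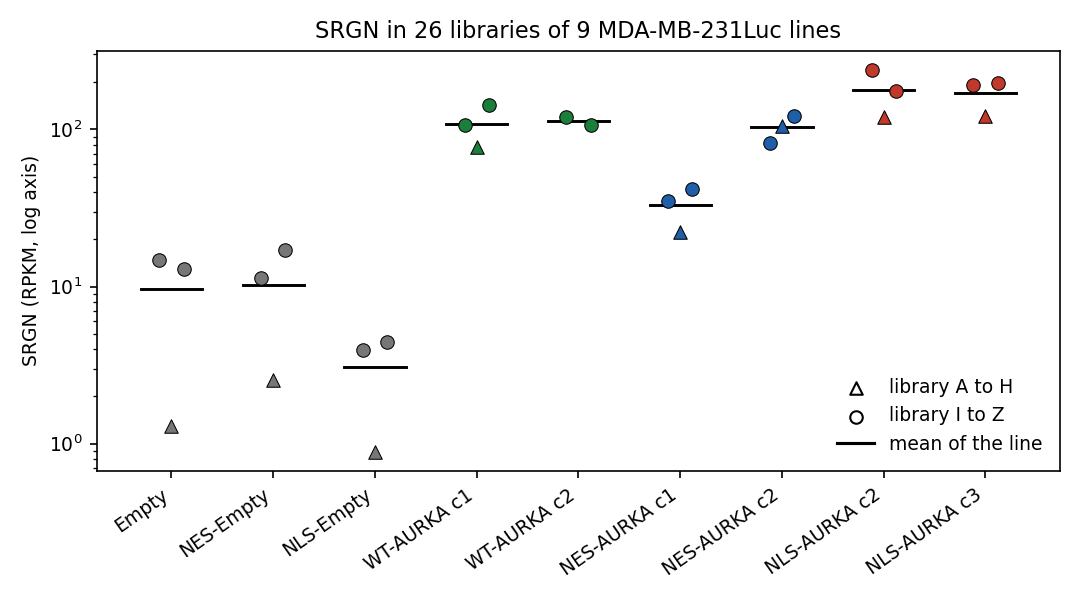
SRGN in RPKM on a log axis in each of the 26 libraries by line, with triangles for libraries A to H, circles for libraries I to Z and bars for the mean of a line. Control libraries lie at or below 17.0 RPKM and libraries of AURKA clones at or above 22.1 RPKM, with NES-AURKA c1 the lowest clone.

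From lowest to highest, the line means were 3.09 ± 1.92 RPKM (SD, n = 3 libraries) in NLS-Empty, 9.69 ± 7.34 RPKM (n = 3) in Empty and 10.3 ± 7.26 RPKM (n = 3) in NES-Empty. NES-AURKA c1 followed with 33.0 ± 9.96 RPKM (n = 3), then NES-AURKA c2 with 103 ± 19.9 RPKM (n = 3), WT-AURKA c1 with 109 ± 33.4 RPKM (n = 3) and WT-AURKA c2 with 113 ± 9.36 RPKM (n = 2). The 2 NLS-AURKA clones were highest, c3 at 171 ± 42.4 RPKM (n = 3) and c2 at 178 ± 59.9 RPKM (n = 3). The steps from NES-Empty to NES-AURKA c1, from NES-AURKA c1 to c2 and from WT-AURKA c2 to NLS-AURKA c3 exceeded the summed SDs of the lines they separate, and the libraries on either side did not overlap. Every other step between neighbouring lines was smaller than the summed SDs and the libraries overlapped. The step from WT-AURKA c2 to NLS-AURKA c3 was narrow, with 120.0 RPKM on one side and 122 RPKM on the other, and library P of WT-AURKA c1, at 144 RPKM, lay above both NLS-AURKA libraries of the A to H set. Within the I to Z libraries the gap was wider, with WT-AURKA at 106 to 144 RPKM and NLS-AURKA at 175 to 239 RPKM, and Empty and NLS-Empty no longer overlapped (12.9 to 14.9 against 3.96 to 4.42 RPKM). WT-AURKA c2 has libraries of this set only, and within it WT-AURKA c1 averaged 125 RPKM, above the 113 RPKM of c2.

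Averaged over lines, SRGN reached 7.69 ± 3.99 RPKM (SD, n = 3 lines) among controls and 118 ± 52.9 RPKM (n = 6 lines) in the AURKA clones, 15.3 times the control mean. The log2 difference of 3.99 was the 3rd highest of the 12589 genes tested, a rank that restates how the gene was picked. Against the control line with the same signal, SRGN was 11.5 times higher in the WT-AURKA clones, 6.62 times higher in the NES-AURKA clones and 56.5 times higher in the NLS-AURKA clones. These ratios depended on the letter set. They were 8.58, 4.97 and 48.1 in the I to Z libraries. In the A to H libraries, where WT-AURKA c2 is absent, they were 59.7, 24.9 and 136. The control lines in these ratios differ themselves, with 3.09 RPKM in NLS-Empty against 9.69 RPKM in Empty and 10.3 RPKM in NES-Empty. Between constructs, NLS-AURKA was 2.56 times NES-AURKA and 1.57 times WT-AURKA. NES-AURKA clones differed from each other by 3.13 times, more than NES-AURKA and WT-AURKA differed in their means (68.1 ± 49.7 against 111 ± 3.07 RPKM, n = 2 lines each).

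The ratio between the arms differed between the letter sets, and mainly the control values moved. In the A to H libraries the controls averaged 1.58 RPKM and the AURKA clones 89.3 RPKM, a ratio of 56.5. In the I to Z libraries they averaged 10.7 and 130.3 RPKM, a ratio of 12.1. The I to Z mean exceeded the A to H value by 4.70 to 10.8 times in the 3 control lines, and lay between 0.970 and 1.74 times it in the 5 AURKA clones with both sets. On the log2(RPKM + 1) scale the shift in the controls averaged 2.07, the 12th highest of 12589 genes (median of all genes 0.12), and the shift in the AURKA clones 0.56, at place 2128 (median 0.08). What set the control libraries of the 2 sets apart in SRGN was not tested.

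Among the genes next to SRGN on its chromosome, HKDC1 was high where SRGN was low. The RefSeq gene table for GRCh38, used for the order of genes only because the deposited table was made on hg19, places DDX50, DDX21 and KIF1BP (now KIFBP) before SRGN and VPS26A, SUPV3L1, HKDC1, HK1 and TACR2 after it. HKDC1 encodes a hexokinase-like enzyme and lies next to HK1, a widely expressed hexokinase. HKDC1 was at 73.8 to 102 RPKM in the 9 control libraries and at 0.407 to 12.7 RPKM in the 17 AURKA libraries. Its mean was 85.0 ± 2.83 RPKM over the 3 control lines and 5.17 ± 3.94 RPKM (SD) over the 6 AURKA lines, and limma gave a log2 difference of -4.14 ± 0.48 (SE) with an adjusted p of 0.000624. Every library with SRGN at or below 17.0 RPKM thus had HKDC1 at or above 73.8 RPKM. Among the AURKA clones alone, however, the order of SRGN was not that of HKDC1 (Pearson r = -0.31 over 6 clones, against -0.91 over 9 lines, where the arms set the value). In the I to Z libraries WT-AURKA held the most HKDC1 of the clones, 10.4 to 12.7 RPKM. In the A to H set its 1 library, D, held the least, 1.12 RPKM. HKDC1, like SRGN, was further apart between the arms in the A to H libraries, at 95.9 to 102 RPKM in the controls and 1.12 to 3.20 RPKM in the clones.

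**Figure D2:**
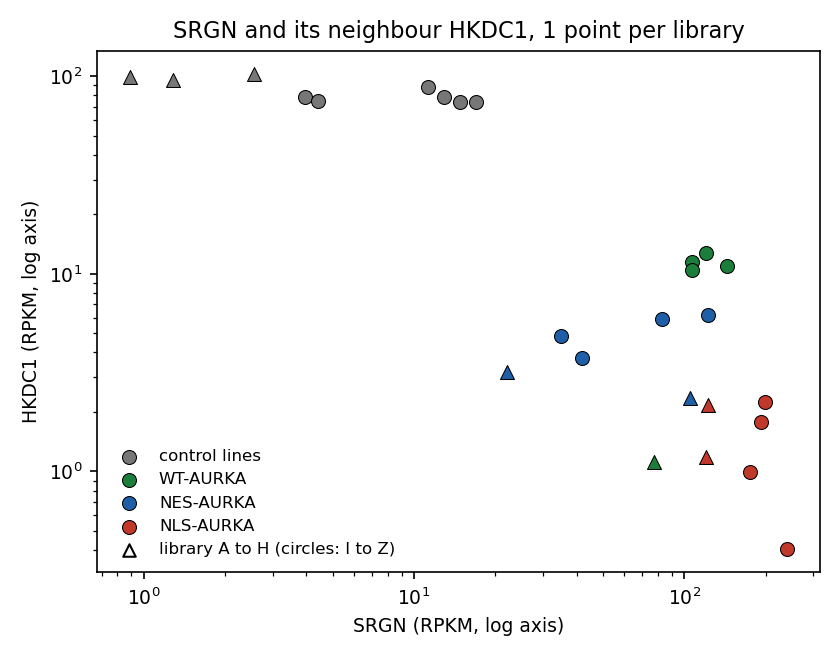
HKDC1 against SRGN, both in RPKM on log axes, 1 point per library, coloured by construct, with triangles for libraries A to H. Control libraries lie at 73.8 RPKM of HKDC1 or more and AURKA libraries at 12.7 RPKM or less.

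Of 7 tested neighbours of SRGN, 2 were lower in the AURKA lines and 0 higher, against 10.4% and 8.85% of all genes. Their median log2 difference was -0.48. KIF1BP, a kinesin-binding protein, was at 14.3 ± 0.910 RPKM in controls and fell to 9.89 ± 1.54 RPKM (-0.50, SE 0.13, limma adjusted p = 0.0246). That call was lost without Empty, NES-Empty, NLS-Empty or WT-AURKA c1, where adjusted p was 0.0985, 0.114, 0.0714 and 0.0504, and with no filter on low values (0.0584). The nucleolar RNA helicase DDX21 was at 86.6 ± 7.38 and 59.6 ± 15.1 RPKM (-0.57, SE 0.21, adjusted p = 0.0858) and its paralogue DDX50 at 36.5 ± 2.57 and 25.8 ± 5.77 RPKM (-0.48, SE 0.18, adjusted p = 0.0999). Both passed in the I to Z libraries, with adjusted p of 0.0253 and 0.0372, and 4 neighbours were then lower. With libraries as units, line as a random effect and letter set as a term, 5 were lower, HK1 among them (0.0487). The retromer subunit VPS26A, the mitochondrial RNA helicase SUPV3L1 and HK1 differed by -0.18, -0.20 and -0.31, with adjusted p of 0.468, 0.418 and 0.282. TACR2 did not exceed 0.133 RPKM in any library and was not tested.

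In NES-AURKA c1, the clone with the least SRGN, the genes around SRGN were low as well. SRGN there was at 24.4% of the mean of the other 5 clones. HK1 was at 56.1%, DDX21 at 57.3%, DDX50 at 60.6%, SUPV3L1 at 61.9%, VPS26A at 66.1% and KIF1BP at 75.7%. Each of these 6 neighbours had its lowest clone mean in NES-AURKA c1, while HKDC1 did not. In the I to Z libraries alone KIF1BP was no longer lowest there (9.30 RPKM against 8.95 RPKM in the lowest other clone), and the other 5 were. Over all 12589 genes tested, 18.2% had their lowest clone mean in NES-AURKA c1 and the median gene was at 98.7% of the other clones. NES-AURKA c1 library F had the lowest overall scale of the 26 libraries, and after rescaling each library by its median ratio SRGN was at 25.2% and the 6 neighbours at 57.7% to 77.3%.

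The low stretch was longer than these neighbours. This wider comparison was added after the neighbours had been seen, and it uses the rescaled values. Among the 50 tested genes nearest SRGN, 25 on either side, 34 (68%) had their lowest clone mean in NES-AURKA c1, against 14.4% of all genes tested. Their median was 73.0% of the other clones, against 103% over all genes. In NES-AURKA c2 the same 50 genes had a median of 114%, and in the other 4 clones medians of 97.4% to 110.7%. With 50 genes on either side the median in NES-AURKA c1 was 75.3%, and 62 of 100 were lowest there. Measured against the control mean, the 50 genes were at 59.4% in NES-AURKA c1 and at 76.0% to 91.9% in the other clones. Over all genes tested these medians were 103% in NES-AURKA c1 and 94.7% to 102.5% in the other clones. The 50 genes were thus below all genes in every clone, and furthest in NES-AURKA c1. SRGN thus lay well below the other clones in NES-AURKA c1, at a lower share of them than the median of its surroundings, and above every control line. Gene copy number was not measured.

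**Figure D3:**
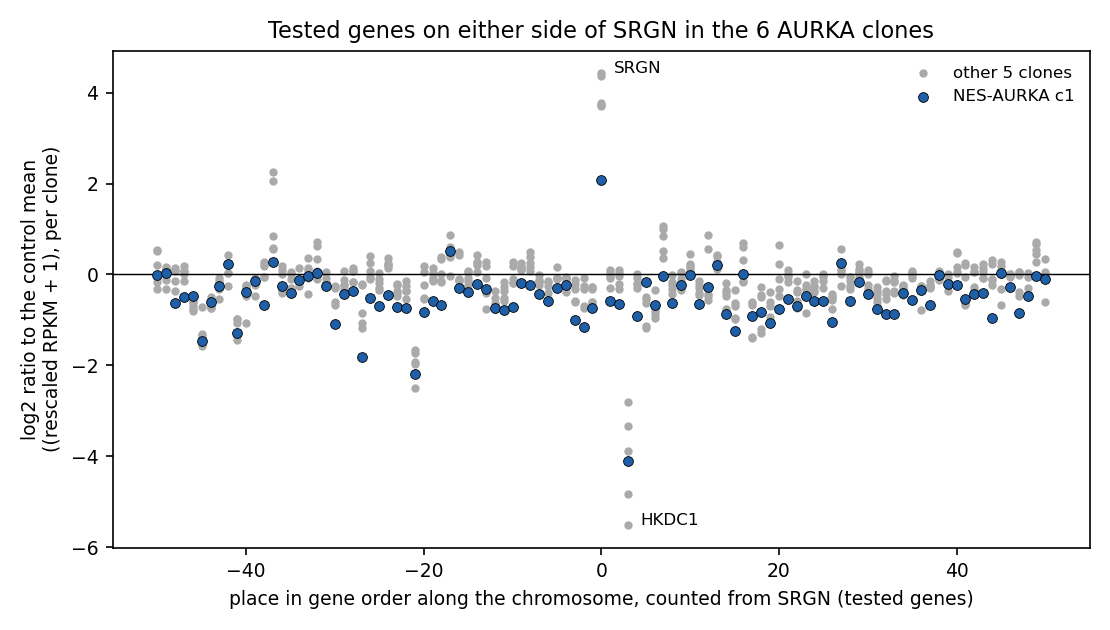
Log2 ratio of (rescaled RPKM + 1) to the control mean in the 6 AURKA clones for the tested genes around SRGN, by place in gene order, with NES-AURKA c1 in blue and the other clones in grey. SRGN stands above 0 and HKDC1 below 0 in all 6 clones, and most genes of NES-AURKA c1 lie under the grey points.

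Several genes followed the SRGN pattern closely over the line means. Likeness was measured as Pearson r of log2(RPKM + 1) line means over 9 lines, among 6643 genes with an average of 5 RPKM or more in whichever arm was higher. These points share the split between the arms, so many genes score high: 160 had r above 0.9 and 155 below -0.9. The 10 most alike were HNRNPL, MSN, APEX2, DGUOK, LPAR1, NONO, LHFP, NDUFAB1, HMGN1 and HECA, with r of 0.97 to 0.99. MSN, which encodes moesin, a linker of actin to the plasma membrane, averaged 107.7 ± 1.73 RPKM over the 3 control lines. It reached 201 RPKM in NES-AURKA c1, 241 in NES-AURKA c2, 243 and 265 in the WT-AURKA clones and 294 and 311 in the NLS-AURKA clones. LPAR1, a receptor for lysophosphatidic acid, was at 12.6 ± 2.18 RPKM in the controls and between 25.3 RPKM (NES-AURKA c1) and 40.1 RPKM (NLS-AURKA c2) in the clones. Over the 26 single libraries r was 0.94 for MSN and 0.95 for LPAR1. For HNRNPL, a splicing regulator that was highest over lines, it was 0.67. NDUFAB1, HMGN1 and HECA were lower still, at 0.61 to 0.63.

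The 5 most opposite genes were FURIN, MGAT4B, EPB41L1, AQP3 and PPL, with r of -0.98 to -0.99. AQP3, a water and glycerol channel of epithelia, was at 14.0 ± 2.49 RPKM in the controls, 3.45 RPKM in NES-AURKA c1 and 1.68 to 2.22 RPKM in the other 5 clones. FURIN, a protease that cleaves precursor proteins in the secretory pathway, was at 11.2 ± 0.668 and 7.28 ± 0.800 RPKM. Over the 6 AURKA clones alone the 10 most alike were CCT3, BTG3, ADK, ATAD3A, INTS11, APEX2, TBC1D2, CLTC, PPP2CB and FOXJ3. CCT3, a subunit of the cytosolic chaperonin, had r = 0.99 there and -0.30 over the 9 lines. APEX2, a DNA repair nuclease, was the 1 gene on both lists of 10. Each gene of the 6-clone list had its lowest clone mean in NES-AURKA c1, as SRGN did. Over the 6 clones 223 genes had r above 0.9. ADK lies within the 50 tested genes after SRGN, in the stretch described above.

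The enzymes that could build the sugar chains were then compared between the arms. Their levels played no part in picking SRGN. Their lists were, however, chosen with earlier results of these data known, so the counts are not independent support. Of 13 chondroitin and dermatan sulfate enzymes tested, 8 were higher and 1 lower in the AURKA lines, against 8.85% and 10.4% of all genes, and a median log2 difference of 0.55. CHST11, which sulfates carbon 4 of the chondroitin repeat, was at 12.8 ± 0.636 RPKM (SD) in the 3 control lines and rose to 21.9 ± 5.96 RPKM in the 6 AURKA lines (0.70, SE 0.19, limma adjusted p = 0.0287). CHSY1, a chondroitin polymerase, rose from 5.97 ± 0.435 to 8.90 ± 0.373 RPKM (0.50, SE 0.08, adjusted p = 0.00248), and its partners CHPF and CHPF2 by 0.52 (SE 0.09, adjusted p = 0.00513) and 0.55 (SE 0.12, adjusted p = 0.0112). CHST15, which adds a second sulfate, rose by 0.58 (SE 0.18, adjusted p = 0.0466). The gene that fell was CSGALNACT1, which starts chondroitin chains (2.02 ± 0.449 to 0.529 ± 0.317 RPKM, -0.99, adjusted p = 0.00476), named here after its value was seen. Its more abundant paralogue CSGALNACT2 was at 34.9 ± 1.92 and 30.9 ± 5.01 RPKM (adjusted p = 0.316). The counts were the same in the I to Z libraries and after rescaling. When Empty, NES-Empty or NLS-Empty was left out, 5, 5 or 4 enzymes were higher. Adjusted p in those 3 fits was 0.109, 0.11 and 0.0907 for CHST11, 0.0504, 0.0617 and 0.0561 for CHPF2, and 0.181, 0.156 and 0.0929 for CHST15. CHST15 also missed the threshold without WT-AURKA c1, WT-AURKA c2, NES-AURKA c1 or NES-AURKA c2 (0.0575 to 0.0814). With no filter on low values 6 enzymes were higher, and CHST11 and CHST15 were not (0.0836 and 0.122).

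**Figure D4:**
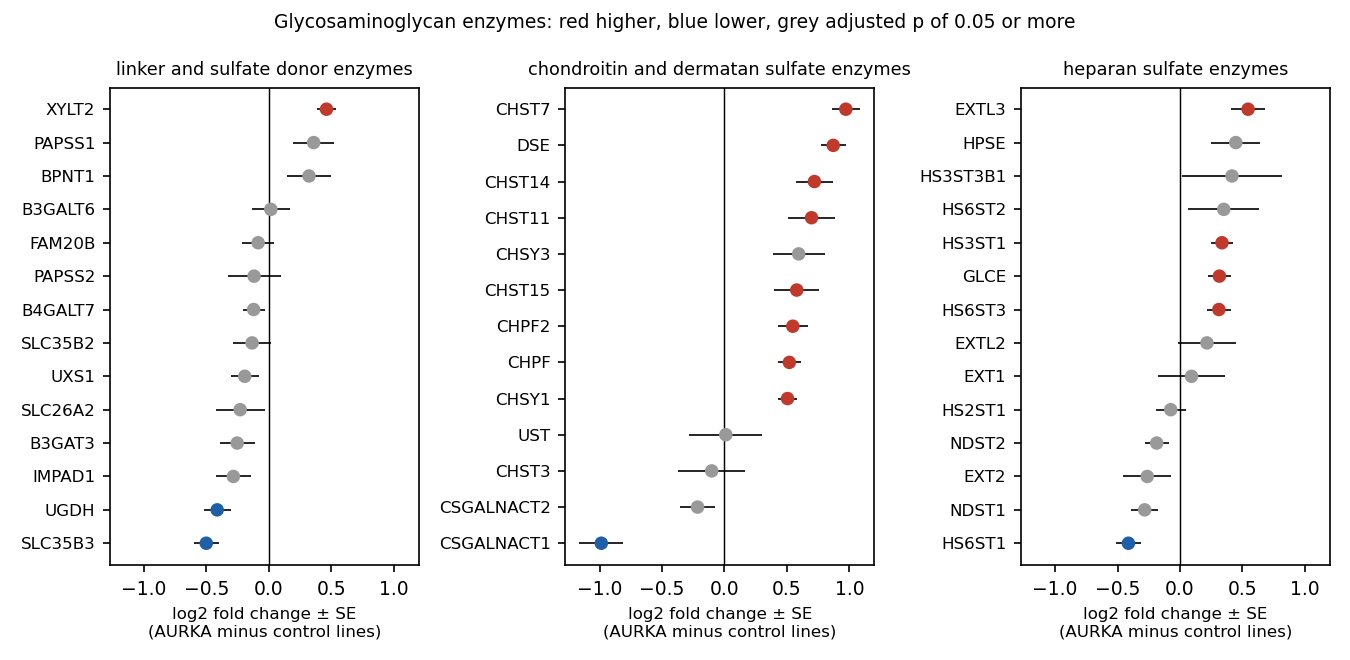
Log2 fold change with its SE between AURKA lines (n = 6) and control lines (n = 3) for the tested enzymes of the linker and sulfate supply, of chondroitin and dermatan sulfate, and of heparan sulfate, with called genes in red (higher) or blue (lower). Of the chondroitin and dermatan sulfate enzymes 8 of 13 lie to the right in red.

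The linker and sulfate supply did not show that pattern, with 1 of 14 higher and 2 lower (8.85% and 10.4% of all genes) and a median of -0.13. XYLT2, which attaches the first sugar to serine, was the gene that rose (1.98 ± 0.184 to 3.10 ± 0.180 RPKM, limma adjusted p = 0.00401), named after its value was seen. UGDH, which makes the glucuronic acid donor, was at 30.3 ± 2.15 RPKM in controls and fell to 22.6 ± 2.31 RPKM (-0.41, SE 0.11, adjusted p = 0.0243), and SLC35B3, a Golgi carrier of the sulfate donor, fell by 0.50 on the log2 scale (SE 0.10, adjusted p = 0.00847). The UGDH call was lost with I to Z libraries alone (adjusted p = 0.208) and when Empty, NES-Empty or NLS-Empty was left out (0.1, 0.0643 and 0.123) and with letter set as a term (0.06), and the SLC35B3 call without NLS-Empty (0.0556). Of 14 heparan sulfate enzymes 4 were higher and 1 lower (median 0.26), but in the I to Z libraries 1 was higher and 1 lower, 1 was higher with no filter, and 0 were higher without any 1 of the control lines. HS6ST1, a 6-O-sulfotransferase, was the one that fell (-0.41, SE 0.10, adjusted p = 0.0181), and GLCE, the epimerase of heparan chains, rose by 0.31 (SE 0.09) at an adjusted p of 0.0416. HS6ST1 missed the threshold without NES-Empty or NLS-Empty (0.092 and 0.106). GLCE missed it in the I to Z libraries (0.287), without any 1 control line (0.094 to 0.206), without either NLS-AURKA clone (0.0625 and 0.0627), with no filter (0.0629) and with letter set as a term (0.0737).

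Between NLS-AURKA and NES-AURKA, the constructs with the most and the least SRGN, 33.2% of all genes were called, 19.1% higher and 14.1% lower. Heparan sulfate enzymes had 8 of 14 higher and 1 lower in NLS-AURKA, linker and sulfate enzymes 6 of 14 higher and 1 lower, and chondroitin and dermatan sulfate enzymes 4 of 13 higher and 3 lower. CHST11 averaged 29.6 ± 0.0944 RPKM (SD, n = 2 lines) for NLS-AURKA and 18.0 ± 0.425 RPKM (n = 2) in NES-AURKA (0.69, SE 0.08, limma adjusted p = 0.000488), while CHST15 was lower in NLS-AURKA (-0.48, SE 0.14, adjusted p = 0.0279). Against WT-AURKA, where 36.1% of genes were called (18.7% higher and 17.4% lower), the 3 lists had 6, 2 and 4 genes higher in NLS-AURKA and 1, 3 and 4 lower. Between NES-AURKA and WT-AURKA (4.87% called, 1.56% higher and 3.3% lower) each list had 0 genes higher and 1 lower. Over all genes that comparison fell from 613 calls to 20 without WT-AURKA c2, and rescaling turned 197 higher and 416 lower into 243 and 219.

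No gene for another proteoglycan core protein was called higher in the main comparison of the arms. Of 15 tested genes for other core proteins, 0 were higher and 4 lower in the AURKA lines, against 8.85% and 10.4% of all genes. Their median was -0.019. The glypican GPC6 was at 8.71 ± 1.75 RPKM in controls and fell to 4.26 ± 1.48 RPKM (-0.86, SE 0.22, limma adjusted p = 0.0229). TGFBR3, betaglycan, was at 5.15 ± 0.488 RPKM and fell to 3.07 ± 0.400 RPKM (-0.60, SE 0.10, adjusted p = 0.00396). With I to Z libraries alone, with no filter, or without NES-Empty or NLS-Empty, 2 were lower. GPC6 was not called in these 4 fits (adjusted p = 0.131, 0.074, 0.0891 and 0.115). Genes called higher in an alternative were GPC2 with no filter, at most 0.115 RPKM in any library, and the syndecan SDC1 with line as a random effect, both named after their values were seen. The other 15 core protein genes found in the table did not reach 1 RPKM in at least 2 libraries. With 118 RPKM in the AURKA lines, SRGN stood beside SDC4, the most abundant of the listed core protein genes, which was at 120.3 ± 44.1 RPKM there and 152 ± 7.03 RPKM in the controls (adjusted p = 0.307).

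No difference was called in CD44, the receptor. Its mean was 48.5 ± 3.80 RPKM (SD) over 3 control lines and 50.9 ± 5.50 RPKM over 6 AURKA lines (0.05, SE 0.11, limma adjusted p = 0.776), with libraries from 36.3 to 55.8 RPKM in the first and 32.2 to 69.4 RPKM in the second, and a log2 difference of -0.020 when only I to Z libraries were used. Partners that serglycin is known to bind or to be secreted with numbered 15 among the tested genes. Of these, 4 were higher and 1 lower, against 8.85% and 10.4% of all genes, with a median of 0.63 for the 15. Without any 1 control line or with no filter 2 were higher, and in the I to Z libraries 6 were higher and 0 lower. The membrane protease MMP14 rose from 22.9 ± 1.32 to 77.4 ± 30.8 RPKM (1.65, SE 0.28, adjusted p = 0.00396) and the growth factor TGFB1 from 8.43 ± 1.20 to 13.2 ± 2.77 RPKM (0.63, SE 0.16, adjusted p = 0.0234). VEGFA, an angiogenic factor, was at 22.7 ± 1.59 RPKM in controls and fell to 10.9 ± 2.49 RPKM (-1.03, SE 0.19, adjusted p = 0.00512). The VEGFA call was lost with I to Z libraries alone (adjusted p = 0.0643), and the TGFB1 call when Empty, NES-Empty or NLS-Empty was left out (0.0914, 0.119 and 0.0501) or with no filter (0.0656). CCL2, CCL3, TNF, MMP9 and MMP13 did not reach 1 RPKM in any library.

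Transcription factors of families with sites in the SRGN promoter, such as ETS, CREB and AP-1, had 7 of 26 higher and 3 lower (median 0.13). Over all genes 8.85% were higher and 10.4% lower. In the I to Z libraries 6 of these factors were higher and 3 lower. When Empty, NES-Empty or NLS-Empty was left out, 4, 3 or 4 were higher and 0 lower, and with no filter 4 and 1. ELK3 and ETS1, both of the ETS family, rose most. ELK3 rose from 9.36 ± 0.854 to 28.1 ± 8.75 RPKM (1.45, SE 0.22, limma adjusted p = 0.00239) and ETS1 from 25.1 ± 2.06 to 54.0 ± 14.1 RPKM (1.04, SE 0.19, adjusted p = 0.0059). The family did not move in 1 direction. ETS2, named after its value was seen, fell from 11.8 ± 0.162 to 8.26 ± 0.942 RPKM (-0.47, SE 0.10, adjusted p = 0.0114). ELK1 was called higher (0.43, SE 0.12, adjusted p = 0.0314), but not in the I to Z libraries (0.17). Between NLS-AURKA and NES-AURKA 3 of the 26 were higher and 3 lower, against 19.1% and 14.1% of all genes. ELK3 and ETS1 were higher in NLS-AURKA, by 0.71 and 0.77 (adjusted p = 0.00276 and 0.000832), while ELF4 and ELK1 were lower (-0.68 and -0.38, adjusted p = 0.0043 and 0.0192). The other two called were RUNX1, higher, and ATF1, lower, and these and ELK1 were named after their values were seen. The AP-1 subunits FOSL1 and JUND rose by 0.72 (SE 0.14, adjusted p = 0.00672) and 0.58 (SE 0.15, adjusted p = 0.0223), and ELF4, an ETS factor, by 0.81 at an adjusted p of 0.0406. JUND missed the threshold without any 1 control line (0.0794 to 0.0959), with no filter (0.0579) and with letter set as a term (0.0632). ELF4 missed it in the I to Z libraries (0.0842), without any 1 control line (0.127 to 0.129), without any 1 WT-AURKA or NES-AURKA clone (0.0545 to 0.0713) and with no filter (0.119). Binding of these factors to SRGN was not measured.

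The granule proteins that accompany serglycin in blood cells were at very low RNA levels. Of the listed granule proteases and cytotoxic proteins, 14 were in the table, 0 reached 1 RPKM in any library, and their summed level was 0.0847 to 0.983 RPKM in control and 0.363 to 2.61 RPKM in AURKA libraries. LYZ, TPSB2 and PF4 had the highest means over the 9 lines. Of 8 mast cell and platelet markers 1 reached 1 RPKM (GP1BA, at most 1.19 RPKM), and the sums were 0.0347 to 0.908 and 0.0507 to 2.06 RPKM. Of 19 tested genes of granule exocytosis 0 were higher and 3 lower, against 8.85% and 10.4% of all genes. Among the lower ones were STXBP2 (-0.57, SE 0.14, limma adjusted p = 0.0176) and STX3 (-0.51, SE 0.13, adjusted p = 0.0219). Neither passed without any 1 control line, with adjusted p of 0.0588 to 0.0832 for STXBP2 and 0.0799 to 0.102 for STX3, and 0 of the 19 were then lower. With no filter 1 was lower and STX3 was not called (0.0522). Other alternatives gave more calls. With line as a random effect 5 were lower and 1 higher, and with letter set as a term 6 were lower and 2 higher.

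Markers of 2 other cell types moved with SRGN in part. Leukocyte markers summed to 34.0 to 56.9 RPKM in control and 56.6 to 97.0 RPKM in AURKA libraries, but 9 of the 12 in the table stayed under 1 RPKM, with PTPRC, the pan-leukocyte CD45 gene, at most at 0.128 RPKM. The median marker averaged 0.0320 RPKM over control and 0.0325 RPKM over AURKA libraries. LAPTM5, a lysosomal membrane protein, rose from 7.18 ± 2.72 to 25.9 ± 12.9 RPKM (1.65, SE 0.45, limma adjusted p = 0.0286), and CD68 was at 39.1 ± 2.53 and 45.9 ± 13.6 RPKM (adjusted p = 0.582). Between the constructs LAPTM5 went against SRGN, with 10.6 RPKM in NLS-AURKA and 39.4 RPKM in NES-AURKA (-1.77, SE 0.27, adjusted p = 0.00143). The LAPTM5 call between the arms was lost in the I to Z libraries (0.0577), when Empty, NES-Empty or NLS-Empty was left out (0.137, 0.0935 and 0.0588) and without WT-AURKA c1 or c2 (0.0552 and 0.0501), and with no filter (0.0972). Endothelial markers summed to 19.9 to 31.4 RPKM in control and 34.2 to 71.3 RPKM in AURKA libraries. Of 4 tested, 2 were higher and 0 lower between the arms, against 8.85% and 10.4% of all genes. In NLS-AURKA 3 of the 4 were higher and 0 lower against NES-AURKA, and the same against WT-AURKA. Over all genes 19.1% and 18.7% were higher in these 2 comparisons. ROBO4 rose from 0.854 ± 0.0673 to 7.56 ± 3.04 RPKM (2.14, SE 0.26, adjusted p = 0.000779) and ESAM, a junction protein, from 25.4 ± 0.729 to 46.9 ± 11.5 RPKM (0.83, SE 0.20, adjusted p = 0.0175). CDH5 and VWF, which define endothelium, did not exceed 0.112 and 0.0515 RPKM in any library. The ESAM call was lost without any 1 control line (adjusted p = 0.0697 to 0.0761) or with no filter (0.0555). What part these marker genes have in the SRGN difference was not tested.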

How the data were processed

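The authors deposited 1 table of RPKM values with 33562 gene symbols and 26 library columns, and per the submitters' processing notes used HISAT2, SAMtools and Partek with hg19. For versions, annotation and strand setting: not given in the sources used here. RPKM are not counts, so limma (version 3.58.1, R 4.3.3) (trend) was run on log2(RPKM + 1), in place of the count test also named in the design. Genes with at least 1 RPKM in 2 libraries were tested (12589). Values were averaged per line, the arms were fitted as 2 groups and the constructs as 4, and p-values were adjusted by Benjamini-Hochberg over all tested genes. The table gives no totals. Depth was read from the commonest low value times GENCODE transcript length, and read numbers cover counting error only. Rescaling divided each library by the median ratio over 8693 genes at 1 RPKM or more in every library. The fit was tested on simulated data. SRGN and the gene lists were chosen with earlier results of these data known. Named genes are SRGN, CD44, the 8 annotated neighbours on either side, the genes most and least like SRGN, and up to 5 called genes per list with at least 5 RPKM in the higher arm. Where under 2 were called, up to 3 of the most abundant are named. Genes outside that rule are marked, or given by level alone. Alternatives were a pseudocount of 0.1, no filter, the I to Z libraries alone, rescaled values, a random effect of line, without and with letter set as a term, and leaving out each line.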

Additional observations from a re-analysis of the deposited data

Results flagged for a closer look

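Outliers were looked for in 36 sets of values over the 6 AURKA clones, SRGN itself left out, and chance flags about 1 in 20. HK1, a neighbour of SRGN, was flagged because NES-AURKA c1, at 4.37 on the log2(RPKM + 1) scale, lay far below the other 5 clones.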

How the results depend on the processing

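The SRGN log2 difference between AURKA and control lines was 3.99. It was 4.97 in the A to H libraries alone, and 3.46 to 4.31 with a pseudocount of 0.1, in the I to Z libraries or after rescaling. Leaving out 1 line gave 3.59 to 4.32. The 2423 genes called between the arms became 902 to 2672 when a line was left out, with the 3 lowest counts (1028, 915 and 902) without Empty, NES-Empty or NLS-Empty. NLS-AURKA against NES-AURKA (4180 genes) gave 2201 to 5453, and NLS-AURKA against WT-AURKA (4547) gave 2452 to 6257. NES-AURKA against WT-AURKA (613) gave 20 to 2409, with 20 without WT-AURKA c2, 2409 and 2046 without NES-AURKA c1 or c2, and 1273 with libraries as units and line as a random effect. After rescaling its 197 higher and 416 lower genes became 243 and 219. Where 1 clone of a construct was left, its spread was taken from the other groups. CD44, not called, changed sign in the I to Z libraries (-0.020), and leaving out 1 line gave -0.012 (without NLS-Empty) to 0.104 (without Empty). The causes of these changes were not tested. No paired analysis was possible because the labels give no replicate numbers shared across lines. The letter sets were used instead as a term beside a random effect of line, an alternative chosen after seeing the data. It gave 3469 calls between the arms, 5423 for NLS-AURKA against NES-AURKA, 5206 for NLS-AURKA against WT-AURKA and 1276 for NES-AURKA against WT-AURKA.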
